A study of Mus musculus with 36 samples.

Results

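The probe sets described here are those private to DBA/2J, an inbred mouse strain widely used in addiction and behavioural genetics. They were chosen by their measured signal. The mean log2 intensity of the 9 DBA/2J arrays had to lie more than 1 above, or more than 1 below, each of the means of 129P3/J, C57BL/6J and SWR/J, and the highest strain mean had to exceed the study's detection level, an intensity of 99.7 on the linear scale. A difference of 1 on this scale is a 2-fold difference in signal. Of 45037 non-control probe sets, 83 met this rule, 26 above and 57 below the other strains. The same rule gave 71 probe sets for 129P3/J, 71 for C57BL/6J and 66 for SWR/J.

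The study asked how morphine changes gene activity in the striatum of 4 inbred strains. Adult male mice aged 8 to 10 weeks received saline, acute morphine or chronic morphine, and each of the 12 groups was measured on 3 Affymetrix whole-genome mouse arrays, each with pooled RNA of 3 mice. In the acute groups, injections of saline were followed by a single dose of 20 mg/kg morphine, whereas the chronic groups were injected 3 times daily with a dose that rose from 10 through 20 to 40 mg/kg over 4 days, ending with 40 mg/kg. The rostral caudate/putamen and nucleus accumbens were removed 4 h after the last injection. The sample labels name the strain and treatment, and no transgene or engineered deletion. Since an array stands for a pool, the p-values reflect differences between pools and not between single mice.

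A probe set is a group of short oligonucleotides that share one target region of a transcript, and many genes are represented by several probe sets placed along their transcripts. Inbred strains carry fixed sequence differences, and these can alter the level of an RNA, the form in which it is spliced or ended, or its match to an oligonucleotide on the array. The members include messenger RNAs as well as long noncoding RNAs, a class that acts without being translated and includes Neat1, the scaffold of nuclear paraspeckles, and the imprinted transcripts Meg3 and Rian. In whole tissue, fewer cells of a type and less RNA per cell cannot be told apart.

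The array medians of 119 to 133 follow from the authors' normalization and say nothing of quality. In the spike-in controls 2 arrays stood apart. The poly-A control probe sets, 27 in number, had centred mean log2 values of -3.53 on the third saline array of 129P3/J and -3.43 on the third saline array of DBA/2J, compared with -0.83 to 0.48 on the other 34 arrays. Without these arrays the rule gave 83 probe sets, of which 80 were the same. The tissue expressed the striatal neuron markers, with 31 of 32 probe sets detected (above the detection level on at least 9 arrays). None of the 174 probe sets of 11 cell type marker lists was private to DBA/2J. With 83 members among 45037 non-control probe sets, a count of 0 in so few says little. The lists' median differences between DBA/2J and the other strains ranged from -0.13 to 0.08, and those of single marker genes from -0.52 to 0.34.

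Of the 83 members, 67 were assigned to 1 gene symbol, 2 to several genes and 14 to none. The 67 represented 60 genes, 54 of them protein coding and 6 long noncoding. The criterion for detection was met by 79 members; the exceptions were Zkscan1 (1440771_at), Serpina1b (1451513_x_at), Ank2 (1459317_at) and the H2-D1 probe set 1427651_x_at. Members above the other strains pass such a filter mainly through the DBA/2J arrays. For 19 of the 26, the means of all other strains were at or under the detection level, so the signal was near background outside DBA/2J. Conversely, the DBA/2J mean was at or under that level for 32 of the 57 members below.

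The gap to the nearest strain had a median size of 1.54 among the members above and 1.499 among those below. It exceeded 2 in 7 members above and 14 below. The other strains lay close to each other, with a median spread of 0.21 between their highest and lowest means, and 71 members had the 3 other strains within 0.5. In 71 members, no DBA/2J array overlapped with any of the 27 other arrays, 20 above and 51 below. Over all non-control probe sets, 0.0955% were above, 0.286% below and 0.382% on either side without overlap. These gaps chose the members, so the values are a description without a test. The direction was the same in saline, acute and chronic arrays for all 83 members, with smallest gaps of 0.59 above and 0.60 below in any single treatment.

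**Figure D1:**
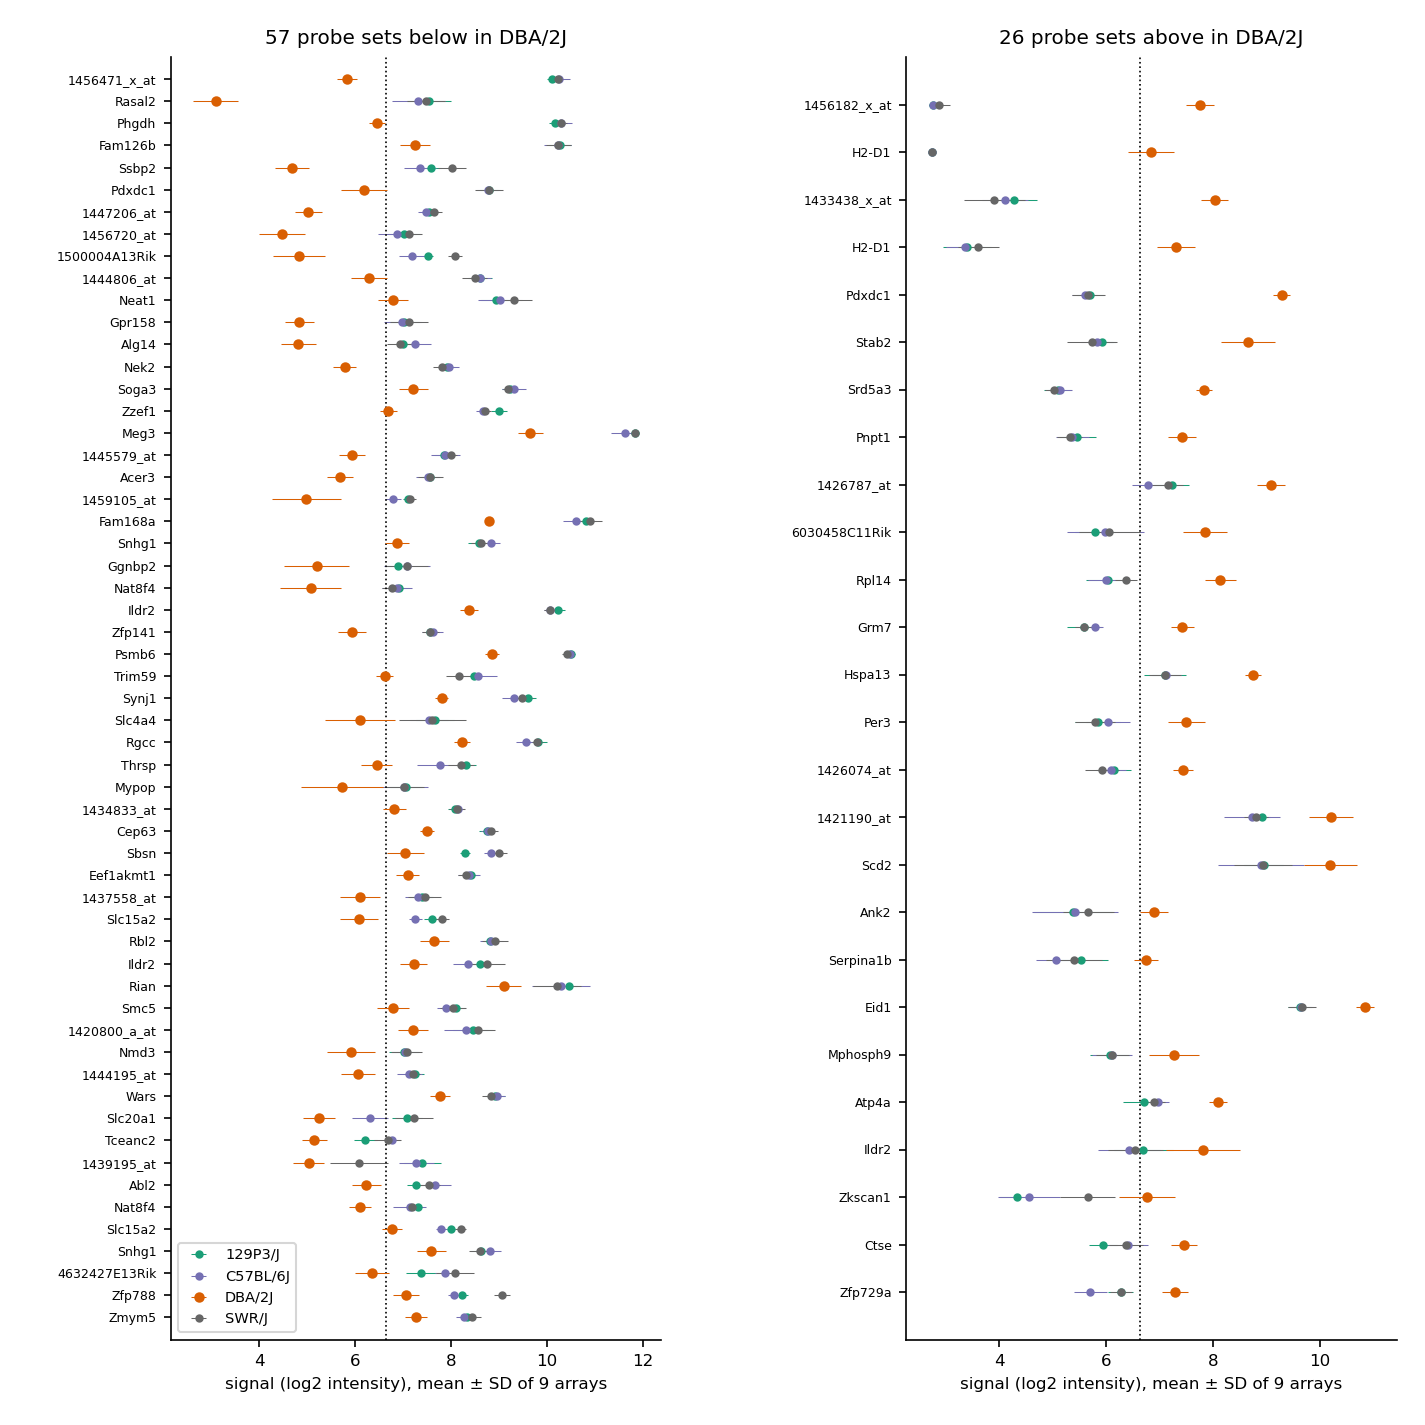
Mean log2 intensity ± SD of the 9 arrays of each strain for the 57 members below (left) and the 26 above (right), ordered by the gap to the nearest strain. Colours mark the strains, the dotted line marks the detection level, and unnamed probe sets carry their identifier; the DBA/2J means lie apart while the other strains cluster, with a median spread of 0.21.

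The largest named gap below was that of Rasal2, a GTPase-activating protein of RAS (1444671_at). On the DBA/2J arrays its lowest, median and highest log2 intensities were 2.74, 2.99 and 4.15, compared with 6.40, 7.28 and 8.30 on the other arrays. The gap was -4.23, or 18.8-fold, but 4 of the 9 DBA/2J arrays were at the floor of the deposited table, so its size depends on the floor. Phgdh, which catalyses the first step of serine synthesis (1454714_x_at), read 6.22, 6.48 and 6.69 in DBA/2J against 9.92, 10.23 and 10.63 elsewhere. Its gap was -3.72, or 13.2-fold. A further probe set, 1456471_x_at, is assigned to several genes and had a gap of -4.28.

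Fam126b (1456257_at) ranged around a median of 7.30 in DBA/2J, from 6.77 to 7.72, and around 10.16 in the other strains, from 9.75 to 10.76. The signal of Ssbp2, a single-stranded DNA binding cofactor of transcription (1429951_at), was 4.11, 4.54 and 5.21 in DBA/2J and 7.05, 7.54 and 8.43 elsewhere. In both cases the groups were fully separate, with gaps of -2.98 and -2.68. Further named members with over 4-fold gaps included 1500004A13Rik (-2.36), the orphan receptor Gpr158 (-2.14), the N-glycosylation enzyme Alg14 (-2.12) and the mitotic kinase Nek2 (-2.04). Soga3 (-1.98), the zinc finger protein Zzef1 (-1.97), the ceramidase Acer3 (-1.82) and Fam168a (-1.81) followed.

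Some members below were abundant in every strain. Psmb6, a catalytic subunit of the proteasome (1448822_at), measured 8.70, 8.87 and 9.06 in DBA/2J and 10.32, 10.47 and 10.62 in the other strains. Synj1, the phosphoinositide phosphatase synaptojanin of nerve terminals (1436334_at), measured 7.65, 7.77 and 8.06 against 8.94, 9.44 and 9.87. Fam168a measured 8.70, 8.78 and 8.93 against 10.35, 10.69 and 11.18. All of these stood over the detection level on the DBA/2J arrays, and none of them overlapped with the other strains.

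Among the members above, the H2-D1 probe sets had the largest named gaps. H2-D1 encodes a class I histocompatibility molecule, a member of a family of near-identical genes, and its x_at probe sets can match several of them, which makes the assignment uncertain. The probe set 1427651_x_at was at the floor of 2.74 on all 27 other arrays and at 6.38, 6.71 and 7.50 in DBA/2J, so the gap of 4.10 is measured against the floor. The second, 1452544_x_at, read 6.78, 7.35 and 7.82 in DBA/2J and 2.74, 3.52 and 4.31 elsewhere. An unnamed probe set, 1456182_x_at, had a gap of 4.88, with DBA/2J values of 7.45 to 8.25, and 20 of its 27 other arrays were at the floor, so this gap too is measured against it.

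Stab2, a scavenger receptor for hyaluronan (1419423_at), measured 7.96, 8.52 and 9.48 in DBA/2J and 5.00, 5.87 and 6.45 in the other strains, a gap of 2.74 or 6.68-fold. Srd5a3, a polyprenol reductase of the dolichol pathway (1439241_x_at), measured 7.68, 7.81 and 8.08 against 4.72, 5.11 and 5.60. Their other-strain values lay under the detection level throughout. Smaller gaps were found in Pnpt1, a mitochondrial RNA-processing enzyme (1.96), 6030458C11Rik (1.79), the ribosomal protein gene Rpl14 (1.76) and Grm7, the presynaptic metabotropic glutamate receptor (1.64). They were followed by Hspa13 of the HSP70 family (1.62), the clock gene Per3 (1.47), the fatty acid desaturase Scd2 (1.25), the membrane adaptor Ank2 (1.23), the protease inhibitor Serpina1b (1.21), Eid1 (1.18) and Mphosph9 (1.15). Grm7 (1459532_at) read 7.14, 7.45 and 7.76 in DBA/2J and 5.07, 5.66 and 6.07 elsewhere. At the other detected probe sets of Grm7, DBA/2J differed from the mean of the other strains by only 0.05 and 0.15. At those of Pnpt1 it differed by -0.08 and -0.42, opposite to the member.

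**Figure D2:**
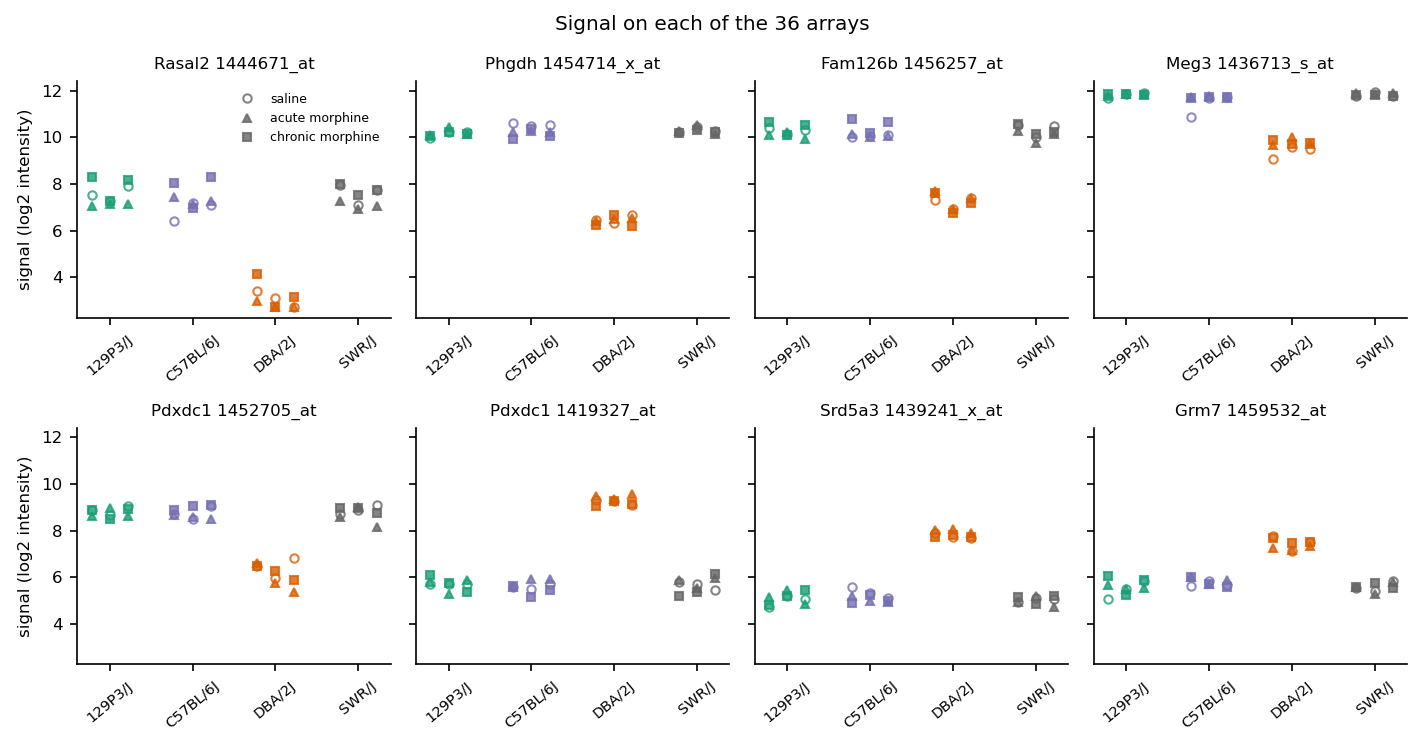
Log2 intensity on each of the 36 arrays for 8 leading members, with 9 arrays for each strain; open circles stand for saline, triangles for acute and squares for chronic morphine. In each panel the DBA/2J arrays are separate from the 27 others, with Rasal2 at 2.74 to 4.15 in DBA/2J and Grm7 at 7.14 to 7.76.

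Near the threshold the members shade into their neighbours. The members just inside were Zfp729a (1.00), the aspartic protease gene Ctse (1.04) and Zkscan1 (1.11) above, and Zmym5 (-1.003), Zfp788 (-1.005) and 4632427E13Rik (-1.02) below. Just outside lay Sfi1 (0.99), 2410018L13Rik (0.96) and the unnamed 1447901_x_at (0.94) above, and Kctd14 (-0.99), 1438989_s_at (-0.99) and Zdhhc20 (-0.99) below.

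Whether a gap extended over a gene was read from the other probe sets of the same gene, which the rule did not select. They share arrays and strains with the members and were therefore not tested. For 48 of the 60 genes, 107 other detected probe sets were present. Of these, 18 (16.8%) differed by more than 0.5 between DBA/2J and the mean of the other strains, 6 higher and 12 lower, compared with 2.29% of all detected probe sets. The remaining majority lay near the level of the other strains, 49 within 0.1, and the median size of the difference was 0.12, compared with 0.061 over all detected probe sets. Of the 18, 14 lay on the same side as the gene's member of largest gap. Of the 107, 65 (60.7%) had the sign of that member, and the median difference in its direction was 0.04.

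Meg3 showed this most clearly. Its member 1436713_s_at measured 9.07, 9.71 and 10.00 in DBA/2J and 10.85, 11.78 and 11.93 elsewhere, whereas the 10 other Meg3 probe sets differed by -0.13 to 0.17. Rasal2 had differences of 0.13 and -0.10 at its other probe sets. For Ssbp2 they were -0.06 to -0.08, for Alg14 0.03 and 0.04, for Scd2 -0.07 and -0.09 and for Eid1 0.05 and 0.07. Srd5a3 had 4 other probe sets between -0.08 and 0.10, and those of Phgdh were lower in DBA/2J by smaller amounts, from -0.25 to -0.30.

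In other genes the difference recurred at some of the other probe sets. Another probe set of Synj1 differed by -1.02 (1436333_a_at), while 1454961_at was level at 0.05. Sbsn, which encodes the epidermal protein suprabasin, had differences of -1.66 at the member and -1.65 at 1439630_x_at. Eef1akmt1, a methyltransferase of elongation factor 1A, had -1.27 at the member and -0.59, -0.56 and -0.20 at others. Fam126b had further detected probe sets at -0.79, -0.36 and -0.01, and 1500004A13Rik at -0.78. Those of Fam168a were at -0.60, -0.12 and 0.02, and those of Rian at -0.64, -0.13 and -0.01. Above, Per3 had others at 0.90 and 0.36 but also at -0.35, Serpina1b at 0.75 and 6030458C11Rik at 0.59.

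Several genes held probe sets of opposite direction. Pdxdc1, a decarboxylase-like protein, had the member 1419327_at at 9.07, 9.28 and 9.57 in DBA/2J against 5.15, 5.71 and 6.15, and the member 1452705_at at 5.36, 6.28 and 6.84 against 8.16, 8.86 and 9.11. The former was 12.0-fold higher and the latter 6.04-fold lower, and a further detected probe set was lower by -0.86. Ildr2, an immunoglobulin-like membrane protein, had 1 member above (1.12) and 2 below (-1.69 and -1.14). H2-D1 had both members above and another probe set at 0.71, but others at -0.47, -0.49 and -0.53. Hspa13 had its member above and others at 1.03, -0.35 and -0.77. The peptide transporter Slc15a2 had members at gaps of -1.18 and -1.02, whereas a further probe set was higher in DBA/2J by 1.03. Nat8f4 (-1.70 and -1.04) and Snhg1 also had 2 members each, both below. Whether a gap at a single probe set stood for the abundance of the transcript, for one of its forms or for its match to the oligonucleotides was not tested, since no oligonucleotide sequences were used here.

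**Figure D3:**
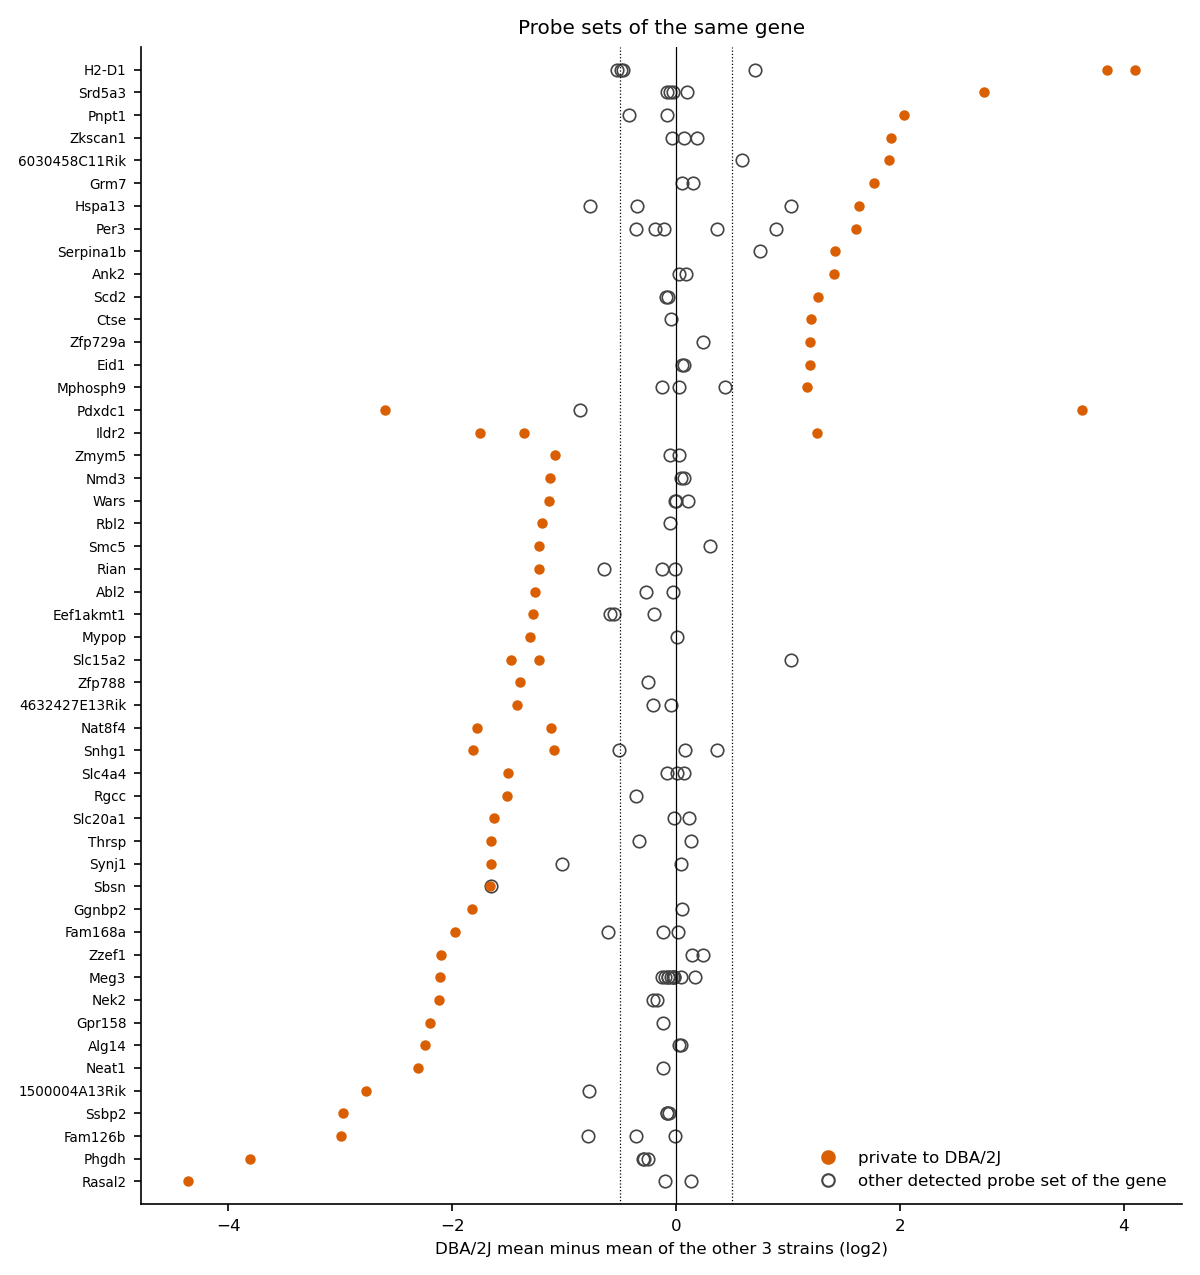
DBA/2J mean minus the mean of the other 3 strains (log2) for the members (filled) and the other detected probe sets (open) of the same gene, 1 gene per row, with dotted lines at -0.5 and 0.5. Most open circles lie between the dotted lines, 18 of 107 outside, and Pdxdc1 and Ildr2 have members on both sides of 0.

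Probe sets ending in x_at, which can share oligonucleotides with other transcripts, made up 11 of the 83 members (13.3%), compared with 5.42% of all non-control probe sets.

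Long noncoding RNAs contributed 5 of the 68 probe sets of a list of such genes, all below: Neat1, Meg3, Rian and 2 probe sets of Snhg1, a host gene of small nucleolar RNAs. Among all 45037 non-control probe sets 83 were members, and 57 of the 83 lay below. The list was chosen with earlier results of these data known, so its count is not an independent result. Neat1 (1428083_at) measured 6.30, 6.68 and 7.37 in DBA/2J and 8.16, 9.15 and 9.78 elsewhere, a gap of -2.16, and its second probe set differed by -0.11. Snhg1 had gaps of -1.71 and -1.02, with differences of 0.08, 0.37 and -0.51 at its other probe sets. Rian (1427580_a_at) measured 8.32, 9.18 and 9.42 in DBA/2J against 8.73, 10.42 and 10.78, so that the ranges overlapped. Over the detected probe sets of the list, 1 per gene, the median difference of DBA/2J from the other strains was -0.03.

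The other lists held few members or none. Since only 83 of 45037 non-control probe sets were members, such low counts are not a result about the lists. The class I and II histocompatibility genes contributed 2 of 45 probe sets, both of H2-D1. Scavenger receptors contributed 1 of 20 (Stab2), GABA and glutamate receptors 1 of 69 (Grm7) and ribosomal proteins 1 of 96 (Rpl14). No member belonged to the lists of opioid peptides and receptors, glucocorticoid-responsive, interferon-responsive, heme synthesis, lysosomal, glutathione or mitochondrial respiratory chain genes. Genes known for DBA/2J alleles gave no member either. The probe sets of Myo5a, the gene of the dilute coat colour, differed by -0.22 to -0.34, those of Gpnmb by -0.03 and 0.09, and those of Tyrp1 by -0.03 to 0.19. Taar1 differed by 0.05 and the agouti gene by -0.02, whereas Cdh23, Fscn2, Hc, Klrd1, 1 probe set of Gpnmb and 2 of Tyrp1 were not detected, so their values compare background with background.

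Meg3 and Rian are direct neighbours on chromosome 12, with no other gene of the array between them, and Wars, the tryptophan tRNA synthetase, lies 2 genes away from Meg3. Wars had a gap of -1.07 and differences of 0.11, -0.01 and 0.00 at its other probe sets. The promoters of Meg3 and Rian are shown because these adjacent genes each held a member below the other strains. Most of their other probe sets were level. Shown too are the promoters of Stab2 and Smc5, each with a probe set called after acute morphine in DBA/2J, though not in every run. Each spans 250 bases before to 50 bases after the start in RefSeq GRCm38.p6, the C57BL/6J reference, so DBA/2J differences are not included; Meg3 at chr12:109540746-109541045 and Rian at chr12:109603695-109603994 are on the plus strand, Stab2 at chr10:87007893-87008192 and Smc5 at chr19:23272550-23272849 on the minus strand. Capitals mark matches on either strand to the CCAAT box, the TATA box (letters TATAAA), the cAMP response element (letters TGACGTCA) and the E-box (letters CACGTG).

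Meg3: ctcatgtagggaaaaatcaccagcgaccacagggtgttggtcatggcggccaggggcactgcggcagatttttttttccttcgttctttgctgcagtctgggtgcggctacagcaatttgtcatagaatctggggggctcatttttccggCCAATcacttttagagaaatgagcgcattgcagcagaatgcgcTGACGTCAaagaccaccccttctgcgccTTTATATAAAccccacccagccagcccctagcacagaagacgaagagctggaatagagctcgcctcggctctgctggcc
Rian: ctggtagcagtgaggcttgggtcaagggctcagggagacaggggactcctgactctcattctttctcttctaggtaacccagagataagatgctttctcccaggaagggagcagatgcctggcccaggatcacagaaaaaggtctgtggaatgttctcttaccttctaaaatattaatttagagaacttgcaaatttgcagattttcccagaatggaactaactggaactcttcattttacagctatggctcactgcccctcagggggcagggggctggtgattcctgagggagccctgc
Stab2: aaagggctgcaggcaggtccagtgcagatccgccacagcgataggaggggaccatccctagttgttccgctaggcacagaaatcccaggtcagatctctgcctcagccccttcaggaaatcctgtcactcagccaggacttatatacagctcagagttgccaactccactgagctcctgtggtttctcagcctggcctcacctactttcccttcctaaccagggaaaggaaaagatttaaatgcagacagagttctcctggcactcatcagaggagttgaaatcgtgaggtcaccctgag
Smc5: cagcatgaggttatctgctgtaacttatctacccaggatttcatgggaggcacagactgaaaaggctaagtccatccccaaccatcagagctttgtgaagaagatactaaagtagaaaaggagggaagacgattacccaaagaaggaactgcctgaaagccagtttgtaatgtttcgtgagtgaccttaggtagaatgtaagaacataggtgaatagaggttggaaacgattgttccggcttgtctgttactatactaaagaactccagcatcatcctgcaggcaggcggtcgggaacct

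The Meg3 window shown held a CCAAT, the cAMP response element and overlapping TATAAA matches on both strands. It was picked for holding the cAMP response element, so that match is not a result. The windows of Rian, Stab2 and Smc5, which were not picked this way, held none of these letters. In all, 53 of the 60 genes had 66 promoters in the table. CCAAT was present in 40.9% of them and in 37.4% of all promoters, TATAAA in 12.1% and 13.6%, CACGTG in 9.09% and 7.15%, and TGACGTCA in 1.52% and 1.79%. The median GC content was 57.8% in the members' promoters and 52.7% in all. Meg3 itself had 13 CG dinucleotides in its 300 bases and Rian had 0.

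Further members lay close together. Zfp788 and Zfp141, both zinc finger genes on chromosome 7, had 2 genes of the array between them, and so did Atp4a (above, 1.13) and Sbsn (below, -1.24). Trim59 and Nmd3 on chromosome 3 were separated by 4 genes, Abl2 and Rasal2 on chromosome 1 by 5, and Zmym5 and Eef1akmt1 on chromosome 14 by 8. On chromosome 7, 4632427E13Rik, Thrsp and Acer3 were each 10 genes apart. With the exception of Atp4a and Sbsn, the neighbours had the same direction. Since 57 of the 83 members lay below, an equal direction of neighbours says little. Chromosome 7 held 9 of the 60 genes (15%), 8 of them below, compared with 7.77% of all detected genes, and the X chromosome held 0. Strain blocks of the genome are inherited together, so neighbouring members are not independent of each other.

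The response to morphine is independent of the strain means used by the rule, since treatments were balanced over the strains. This does not cover the detection filter, which members above pass mainly through the DBA/2J arrays. The response was tested in limma over 27212 detected probe sets with Benjamini-Hochberg adjustment at 0.05. A morphine effect over the 4 strains was found in 18 of the 79 detected members (22.8%), compared with 21.6% of all detected probe sets, a share near the background. Of the 18, 5 were above and 13 below. Estimated acute and chronic changes had opposite signs in 16 of the 18, and the acute change was the larger in 13. These counts were not made over all called probe sets, so they are not a result about the members. The 2 arrays with low poly-A controls are saline arrays, and without them 15 members passed (19.4% of all). With a random block for treatment and number only 4 passed, Stab2, Smc5, the Ildr2 probe set 1436894_at and the unnamed 1420800_a_at (4.25% of all).

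Over the strains, the estimates of Stab2 were 0.63 (SE 0.10) after acute and 0.13 (SE 0.10) after chronic morphine (limma F-test, adjusted p = 0.000511). Stab2 was over the detection level on the 9 DBA/2J arrays and on 0 of the other 27, so this estimate averages DBA/2J with strains of signal near background. Smc5, a subunit of the SMC5/6 complex of DNA repair, changed by 0.37 (SE 0.067) and -0.03 (SE 0.067). The bicarbonate transporter Slc4a4 (1421225_a_at) had the largest acute fall in this estimate, -0.71 (SE 0.19). It was accompanied in the F-test by Ildr2 1436894_at (acute -0.52, chronic 0.40), the phosphate transporter Slc20a1 (-0.39 and 0.08), Rasal2 (-0.20 and 0.40) and Fam168a (-0.19 and 0.13). Snhg1 (0.21 and -0.13), Synj1 (0.15 and -0.08) and Alg14 (0.09 and -0.28) had the reverse signs. The Rasal2 estimates average in DBA/2J, where 4 of the 9 arrays were at the floor.

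The other probe sets of the called genes gave a mixed picture. Of 25 in 12 genes, 10 were called in the same F-test, compared with 21.6% of all detected probe sets. The acute sign of the member was shared by 15 of the 25, a count for which no background was computed. Snhg1 1433674_a_at changed by 0.30 (SE 0.069) after acute morphine with an adjusted p of 0.000499 in limma, in the direction of both Snhg1 members, although its level in DBA/2J was that of the other strains. Rasal2 1436910_at (-0.23 and 0.18) and Fam168a 1434374_at (-0.38 and 0.06) were also called with the signs of the members. Of the 10 called probe sets, 6 had the acute sign of the member. The others did not: Slc4a4 1434096_at had an acute estimate of 0.05 (limma F-test, adjusted p = 0.00988) where the member fell by 0.71. Slc20a1 1448568_a_at (0.11), Mphosph9 1449659_s_at (0.32) and 6030458C11Rik 1433860_at (0.11) were likewise called with a positive acute estimate, opposite to their members. The remaining detected probe sets of Slc4a4 had acute estimates of -0.19 and 0.00.

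Within DBA/2J, acute morphine changed 2 of the 79 members, Stab2 and Smc5, both upward, compared with 0.974% of all detected probe sets; 23 members and 18.3% of all had an unadjusted p under 0.05. Stab2 read 8.43, 8.21 and 7.96 on the saline arrays, 9.02, 9.27 and 9.48 after acute and 8.52, 8.58 and 8.43 after chronic morphine. The acute arrays were all above the saline and the chronic arrays. The acute increase was 1.05 (SE 0.21, limma adjusted p = 0.0189).

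Smc5 (1426271_at) read 6.48, 6.54 and 6.49 on the DBA/2J saline arrays, 7.37, 6.86 and 7.29 after acute and 6.79, 6.645 and 6.67 after chronic morphine. Again the acute arrays were the highest, with an increase of 0.67 (SE 0.13, limma adjusted p = 0.0189). The second Smc5 probe set, 1426270_at, which had a strain difference of 0.30 in the other direction, had an acute difference of 0.16 (SE 0.13) and was not called in DBA/2J (adjusted p = 0.523).

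Neither call held under every omission of a single array. Leaving out DBA/2J saline replicate 1 or 3 or acute replicate 1 or 3 took both over the threshold, with adjusted p up to 0.123 for Stab2 and 0.125 for Smc5, while the increases stayed at 0.93 to 1.18 and 0.57 to 0.82 over all 36 omissions. Without both arrays of low poly-A controls the adjusted p was 0.144 for Stab2 and 0.115 for Smc5. The hybridization controls, centred over arrays, were -0.17, -0.08 and 0.27 on the DBA/2J saline arrays and -0.28, 0.66 and -0.50 on the acute arrays, and their part in the result was not tested.

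The increases were not shown to be particular to DBA/2J. The acute estimates of Stab2 were 0.42 in 129P3/J, 0.31 in C57BL/6J and 0.72 in SWR/J (SE 0.21 each), although its signal there remained under the detection level. Those of Smc5 were 0.29, 0.18 and 0.32 (SE 0.13 each). The DBA/2J change exceeded the mean of the other strains by 0.57 (SE 0.24, limma adjusted p = 0.534) for Stab2 and 0.40 (SE 0.15, adjusted p = 0.518) for Smc5.

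**Figure D4:**
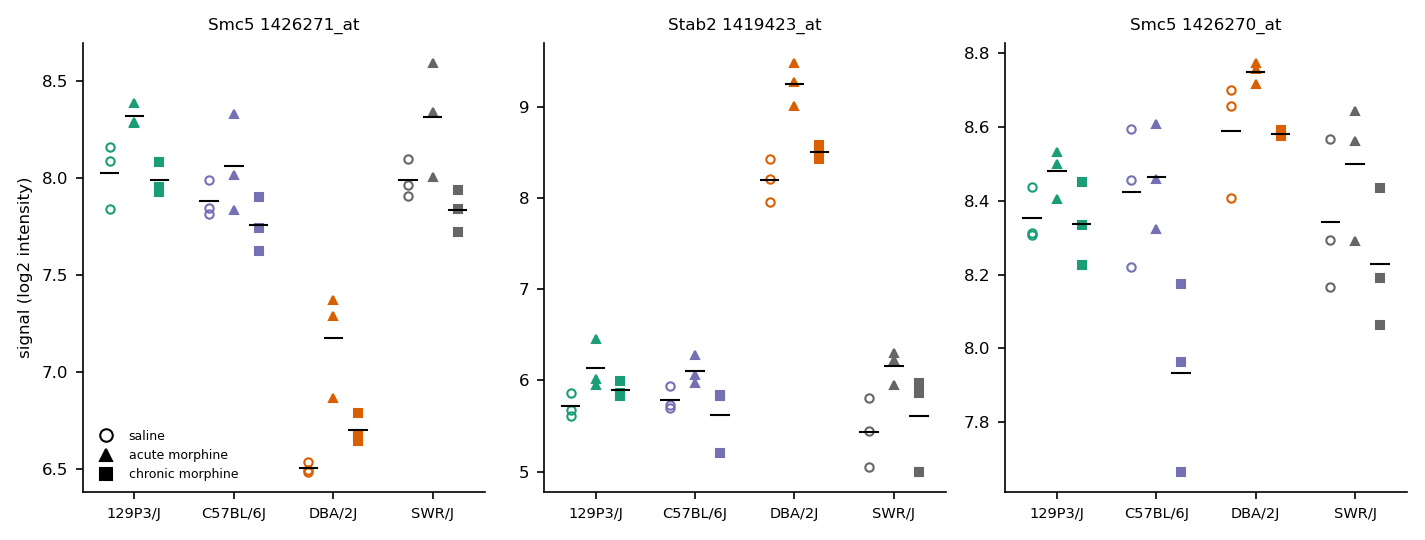
Log2 intensity on each array for Smc5 1426271_at, Stab2 1419423_at and the second Smc5 probe set 1426270_at by strain and treatment, with 3 arrays per group and bars at the group means; the vertical axes differ between panels and do not start at 0. In DBA/2J the acute arrays of Stab2 (9.02 to 9.48) and Smc5 1426271_at (6.86 to 7.37) lie above the saline and chronic arrays.

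Chronic morphine gave 0 called members in DBA/2J, compared with 0.00735% of all detected probe sets in limma; 5 members and 3.34% of all had an unadjusted p under 0.05. The smallest was that of Ggnbp2 (1459917_at), named here after its values were seen. It read 5.73, 5.74 and 6.01 on the saline arrays and 4.43, 3.85 and 5.39 on the chronic arrays, a difference of -1.27 (SE 0.33, adjusted p = 0.729), with all of these arrays under the detection level.

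No strain-dependent response was called among the members. The acute change in DBA/2J minus the mean change of the other strains was called in 0 of 79 members and 0% of all probe sets, with 11 members and 8.82% of all at an unadjusted p under 0.05. The chronic difference was called in 0 members (0% of all; 5 unadjusted, 1.40% of all), and the F-test of all interactions likewise in 0 (0% of all; 5 unadjusted, 5.14% of all). The smallest named p for the acute difference was that of Psmb6, 0.27 (SE 0.089, adjusted p = 0.441). Mphosph9, a phosphoprotein of dividing cells, followed at -0.86 (SE 0.29, adjusted p = 0.453). Another probe set of Mphosph9, 1440915_at, fell by 0.53 (SE 0.12) within DBA/2J after acute morphine (adjusted p = 0.0344 over all probe sets), whereas 1449659_s_at had an estimate of 0.39 (SE 0.13, adjusted p = 0.118).

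In DBA/2J their median change was 0.03 after acute and -0.01 after chronic morphine, compared with 0.01 and -0.02 over all detected probe sets, and the acute changes ranged from -1.004 to 1.05. The median difference from the other strains' change was 0.02 in acute and 0.01 in chronic arrays.

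**Figure D5:**
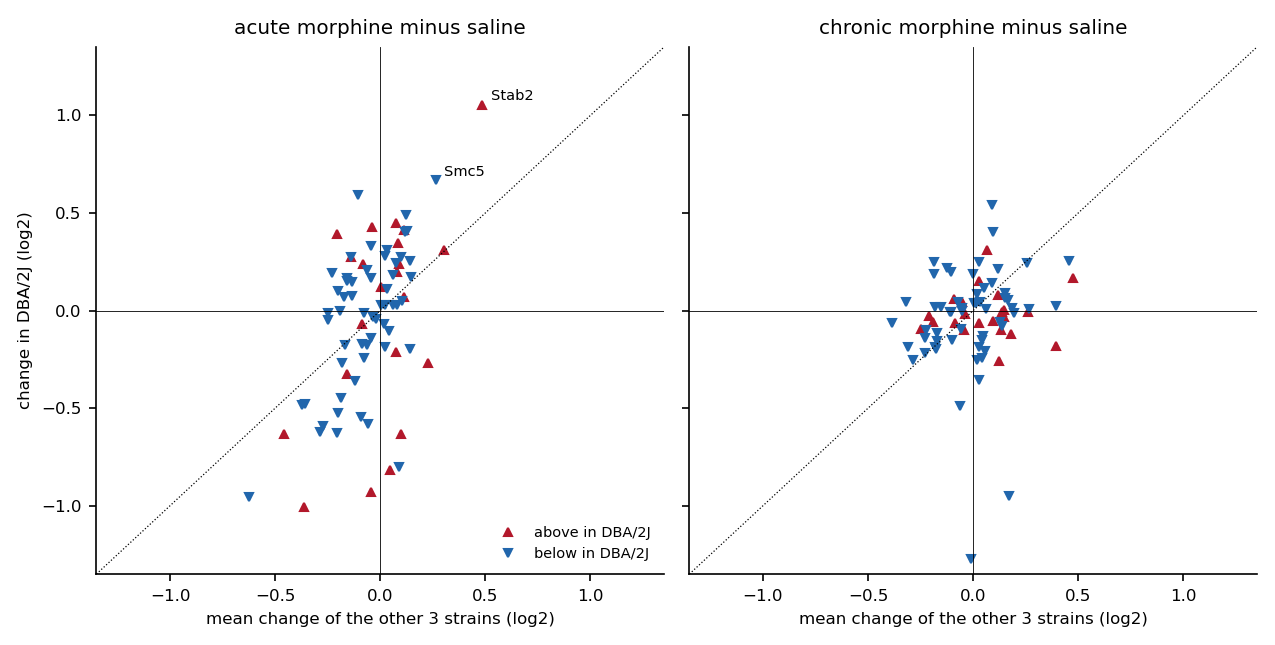
Change in DBA/2J against the mean change of the other 3 strains (log2) for the 79 detected members after acute (left) and chronic (right) morphine; triangles point up for members above and down for members below the other strains, and the dotted line marks equal changes. The acute changes in DBA/2J run from -1.004 to 1.05, with Stab2 and Smc5 at the upper right.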

How the data were processed

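Striatal RNA pools were hybridized by the authors to 36 arrays, 3 for each of 12 groups. The deposited intensity values are linear model-based expression indices that the authors computed with dChip (perfect match/mismatch method, quantile normalized), with a floor at 6.69; 2 of the values are missing. The authors' other normalizations and present calls were not used here. From the deposited intensity, log2 was taken, and members were found by the rule given in the report. Members and lists were chosen with earlier results of these data known. Detection required an intensity above 99.7 on at least 9 arrays, which 27212 of 45037 non-control probe sets met. Limma 3.58.1 (R 4.3.3, statmod 1.5.0) fitted 12 group means by lmFit and eBayes over these, with Benjamini-Hochberg adjustment; the fit was tested on simulated data. The number of arrays limits the precision.

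Symbols came from the platform annotation through gene identifiers in RefSeq GRCm38.p6, with 34945 probe sets of 1 symbol. Named are the 15 genes of largest gap on each side, up to 10 members called for morphine, the 3 probe sets on each side of the threshold, genes with several members, list and neighbouring members, and genes of known alleles; Ggnbp2, Psmb6 and Mphosph9's probe sets were named for their tests after values were seen. The 24 lists hold striatal neuron, microglia, oligodendrocyte, astrocyte, endothelial, choroid plexus, ependymal, red blood cell, cortical excitatory neuron, septal and pallidal, and striatal interneuron markers and the gene families of the report. Alternatives covered scale, normalization, thresholds, filter, block, moderation, array weights and the omission of each array. Tables were made with pandas 2.3.3 and numpy 2.4.6 under Python 3.11.15, and figures with matplotlib 3.10.9.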

Additional observations from a re-analysis of the deposited data

Results flagged for a closer look

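In the 30 leading members, each strain's 9 arrays were searched for a single array far from the rest, by the ratio of its distance from the nearest array to the range of all 9 (Dixon's criterion). Of 120 groups, 14 held such an array, where chance gives about 1 in 20. C57BL/6J saline replicate 1 was the array in 6 of them: it was low in Meg3 1436713_s_at (10.85, others 11.67 to 11.78), Scd2 (6.88, others 8.82 to 9.64) and Ank2 (3.50), and high in Ssbp2 (8.10), Soga3 (9.86) and Zzef1 (9.01). In 129P3/J, chronic replicate 1 was high in Eid1 (10.13) and Gpr158 (7.78), and acute replicate 1 was high in Stab2 (6.45) and Pnpt1 (6.30).

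In DBA/2J itself, chronic replicate 1 was low in Rpl14 (7.49, others 7.98 to 8.41) and high in Rasal2 (4.15, others 2.74 to 3.40), and chronic replicate 2 was low in Alg14 (3.92, others 4.67 to 5.10). C57BL/6J saline replicate 3 was low in Serpina1b (4.25). None of these arrays reached the levels of the opposite side in Meg3, Rasal2, Alg14, Rpl14, Stab2 or Pnpt1.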

How the results depend on the processing

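The number of members was 83 and stayed at 79 to 83 with quantile normalization, median centring, arithmetic means or saline arrays alone (79, of which 69 were members), and at 80 to 86 when any single array was left out. With 32 added to the intensities it was 58, of which 55 were members, with a gap over 1.5 it was 41, and with a highest mean over an intensity of 199 it was 54. Of the 30 leading members, 27 kept a gap over 1 with 32 added and 29 in saline arrays alone. The other probe sets over 0.5 numbered 18 among detected ones and 21 among all.

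Replicate numbers are shared between groups, but the labels name no shared batch. Samples of the same treatment and number in other strains had deviations with a mean correlation of 0.264 (lowest -0.473), with 79.6% over 0.1. Those of the same treatment but another number had -0.133, with 20.4% over 0.1, so arrays of 1 treatment and number deviated together in part. Not every pair did, and those of the same strain and number had 0.0305, so the numbers were not used as pairs between treatments. With the replicate block, acute calls within DBA/2J numbered 5 in place of 2 (4.27% of all probe sets), and the morphine F-test 26 in place of 18 (27.0%). With a random replicate block of treatment and number the F-test gave 4 (4.25%).

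The morphine F-test gave 10 members without the filter (11.7% of all probe sets called), 34 with array weights (40.6%), and 9 to 25 when single arrays were left out. Leaving out 129P3/J chronic replicate 1 gave the 9 (16.5%), C57BL/6J chronic replicate 2 the 25 (27.4%), and C57BL/6J chronic replicates 1 and 3 each 11 (18.2% and 16.7%). Acute calls in DBA/2J numbered 1 with a filter on the overall mean, which dropped Stab2, 0 on the DBA/2J arrays alone (0% of all; 23 members unadjusted), 27 with array weights (20.6%), 0 without the 2 saline arrays of low poly-A controls (0.0698%; 13 unadjusted; chosen after the data were seen), and 0 to 9 over single omissions, with the 9 without DBA/2J saline replicate 2 (3.68%). With array weights, chronic calls in DBA/2J numbered 8, acute differences from the other strains 8, and interactions 1, in each case where 0 were called otherwise, with 3.71%, 2.62% and 1.65% of all probe sets called; the cause was not tested. The acute increases of Stab2 and Smc5 in DBA/2J did not reverse under any alternative run. The gaps of the 30 leading members did not reverse with 32 added, quantile normalization, median centring or saline arrays alone. The other named changes were not checked for reversal. Signal near background limits the members' gaps, since 19 of 26 members above and 32 of 57 below were at or under the detection level on one side. Arrays at the floor itself occurred in 3 members above, in the other strains, and in 1 below, in DBA/2J.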
